A study of Mus musculus with 34 samples.

Results

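Expression of 92 genes that encode the transcription machinery was examined in single mouse embryos. The genes were all those whose symbol named a subunit of RNA polymerase I, II or III (27 genes), a general transcription factor of the TFIIA to TFIIH series (12 genes), a TBP-associated factor or TAF (23 genes) or a Mediator subunit (30 genes). All 92 were listed in every deposited table, of 49686 genes in the zygote and late 2-cell tables and 51734 in the blastocyst table. The choice used symbols only and no measured value. Subunits that the tables list under other names, such as Twistnb, Cd3eap and Znrd1 of Pol I, therefore fall outside the 92 and were counted with the other pathway genes.

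RNA polymerase I makes ribosomal RNA, RNA polymerase II makes mRNA, and RNA polymerase III makes tRNA and other small RNAs. They share some subunits. At a Pol II promoter TFIID, built of TBP and TAFs, TFIIA and TFIIB position the polymerase, TFIIF accompanies it, and TFIIE and TFIIH help open the DNA. Mediator links activators to the polymerase through head, middle and tail modules on the Med14 backbone, and a separate kinase module can dock onto it. The mouse zygote relies largely on maternal mRNA, which is cleared while the embryo's own genome is activated, with the major wave of activation at the late 2-cell stage.

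CHK1 is a kinase of the cell-cycle checkpoint. As zygotes, the embryos received mRNA coding for CHK1 in its wild-type form (WT) or in a mutant form, R442Q, by injection. The labels give these 2 forms as genotypes, and the word is used in that sense here. Injected mRNA adds to the embryo's own Chek1, so each group carried the native gene as well. Each library was 1 embryo, made by SMART-seq2. There were 11 zygotes (5 WT, 6 R442Q), 9 embryos at the late 2-cell stage (4 WT, 5 R442Q) and 14 blastocysts (7 of each form). All blastocysts had also received a CHK1 inhibitor at 30 nM, so an effect of the inhibitor cannot be told apart from the stage. Nothing in the labels says which embryos shared parents, injections or culture drops, so p-values measure only the spread between these embryos.

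Total counts were 7183632 to 11296522 per zygote and 5727956 to 8916343 per late 2-cell embryo. Blastocyst depth is unknown because FPKM alone was used there. Chek1, the injected gene, was at 4123 to 9079 FPKM in WT and 5290.4 to 6868 FPKM in R442Q zygotes, with medians of 364 and 438 FPKM at late 2-cell and 19.4 and 18.5 FPKM in blastocysts. These levels do not separate the 2 injected forms. All 9 oocyte and zygote markers had a median of at least 1 FPKM in WT zygotes, all 8 late 2-cell markers did in late 2-cell embryos of both genotypes, and all 7 trophectoderm and 6 inner cell mass markers did in blastocysts of both genotypes. This level alone does not separate the 2 early stages. Of the 8 late 2-cell markers 4 reached it in WT and 7 in R442Q zygotes. Of the 9 oocyte and zygote markers 9 reached it in WT and 8 in R442Q late 2-cell embryos.

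The promoters of the 3 risers and 3 fallers with the largest change from zygote to late 2-cell in WT embryos, among called genes with a single listed start, are shown first as examples of genes that changed between these stages. The 3 fallers shown are not the largest falls of the 92, which were those of Med30, Gtf2b and Taf9b. Each is the 120 bases before the start in the RefSeq table on GRCm38.p6, read 5′ to 3′ on the gene's strand. Windows lying more than 30 bases inside the gene's own GENCODE span were passed over. Capitals mark matches on either strand to 5 short motifs known from mammalian promoters. The TATA box, which TBP binds, was searched as TATAAA. The GC box, which Sp1 binds, was searched with the letters GGGCGG. For ETS factors the search used CCGGAAG on either strand. The motif of the factor NF-Y was searched as CCAAT in the same way. The E-box, bound by helix-loop-helix factors, was searched as CACGTG. The first 3 genes rose: Taf7l (chrX:134476491-134476610, minus strand), Med29 (chr7:28392691-28392810, minus strand) and Polr1c (chr17:46248046-46248165, minus strand). The next 3 fell: Med17 (chr9:15279907-15280026, minus strand), Med28 (chr5:45520109-45520228, plus strand) and Med18 (chr4:132463922-132464041, minus strand).
Taf7l: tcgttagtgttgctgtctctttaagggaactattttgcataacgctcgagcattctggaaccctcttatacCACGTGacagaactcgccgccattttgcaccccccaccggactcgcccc
Med29: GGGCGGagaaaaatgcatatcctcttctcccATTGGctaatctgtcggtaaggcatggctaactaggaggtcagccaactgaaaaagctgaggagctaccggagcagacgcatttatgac
Polr1c: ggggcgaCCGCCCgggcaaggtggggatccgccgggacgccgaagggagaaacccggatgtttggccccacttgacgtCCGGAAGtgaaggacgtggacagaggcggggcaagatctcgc
Med17: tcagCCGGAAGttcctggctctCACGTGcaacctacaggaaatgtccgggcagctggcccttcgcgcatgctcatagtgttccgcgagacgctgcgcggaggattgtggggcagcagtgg
Med28: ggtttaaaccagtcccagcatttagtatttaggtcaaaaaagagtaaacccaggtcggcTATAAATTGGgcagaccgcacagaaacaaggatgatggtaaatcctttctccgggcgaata
Med18: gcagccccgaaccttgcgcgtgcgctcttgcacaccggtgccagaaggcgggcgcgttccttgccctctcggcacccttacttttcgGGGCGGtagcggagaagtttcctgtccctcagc

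In the Med28 window the TATA match and the CCAAT-box match, on the other strand, overlap. Among the 78 genes with an entry (93 windows), 49.5% of windows held the GC-box letters, against 26.5% of all 32851 windows of this length in the table. The ETS letters were in 20.4% against 4.99%, and the TATA letters in 5.38% against 6.34%. Among genes that rose from zygote to late 2-cell in WT, 56.8% of 44 windows held the GC-box letters, and among those that fell 23.8% of 21 did. The ETS shares of risers and fallers were 22.7% and 23.8%. These shares describe letters in the windows and were not tested.

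Levels per transcript length were read as FPKM, which was normalised separately in each table, so levels are set side by side across stages without a test. In a whole embryo fewer cells that express a gene and less of its RNA per cell cannot be told apart. Genes were ranked by their median over all embryos of a stage, WT and R442Q together, and the values given are those of WT embryos. In zygotes the most abundant of the 92 genes were Med27, Med28, Polr2c, Med30 and Med10. Med27 had a WT median of 1017 FPKM (890.0 to 1183), Med28 924 FPKM (883 to 977) and Polr2c 801 FPKM (649.7 to 869). The WT ranges of Med27 and Med28 overlapped, whereas Polr2c lay below all Med28 values. Thus 3 of the 4 subunits that join head and tail, Med27, Med28 and Med30, were among the 4 highest genes, while the remaining subunit, Med29, had a WT median of 1.81 FPKM (1.35 to 2.92). At the other end stood Polr3e, a Pol III subunit, at 0.900 FPKM, and Taf1c, of the Pol I factor SL1, at 0.150 FPKM, in WT. Taf7l, a germ cell relative of Taf7, had 4 counts summed over 5 WT zygotes and 1 over 6 R442Q zygotes.

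At late 2-cell the leading genes were Polr2j, Polr2f, Med10, Taf1d and Med29. Polr2j had a WT median of 727 FPKM (609 to 891) and Polr2f, a subunit of all 3 polymerases, 539 FPKM (433 to 684), and their ranges overlapped. Over both genotypes the lowest were Med13l, Med12l and Taf1c, the last at 0 to 3.76 FPKM in WT. In WT alone Med13l, with a median of 3.79 FPKM, stood above Taf15 at 3.21 FPKM and Med12 at 2.87 FPKM, and Polr2c at 285 FPKM stood above Med29 at 273 FPKM. In blastocysts Polr2f led with a WT median of 583 FPKM (443 to 1602), and Polr2e was at 404 FPKM (271 to 503), Polr2i at 279.8 FPKM, Polr2j at 268 FPKM and Med28 at 226 FPKM. Taf7l was listed at 0 in all 14 blastocysts. Of the 92 genes, 29 had their highest WT median in zygotes, 43 at late 2-cell and 20 in blastocysts. The sum of FPKM per embryo differed between stages, with WT medians of 677490.3, 739259.9 and 1027761, and with each embryo rescaled to the same sum, a setting added after seeing the data, the counts were 33, 49 and 10. In R442Q embryos they were 26, 45 and 21 as deposited and 32, 43 and 17 after rescaling. On both scales the late 2-cell stage was highest for 8 of 9 Pol III subunits in WT and for 5 of 9 in R442Q. Of the 5 subunits shared by all polymerases, the blastocyst was highest for 4 in WT as deposited and, after rescaling, for Polr2e alone. In R442Q it was Polr2e alone on both scales. The plot of levels by role shows the deposited values in WT.

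**Figure D1:**
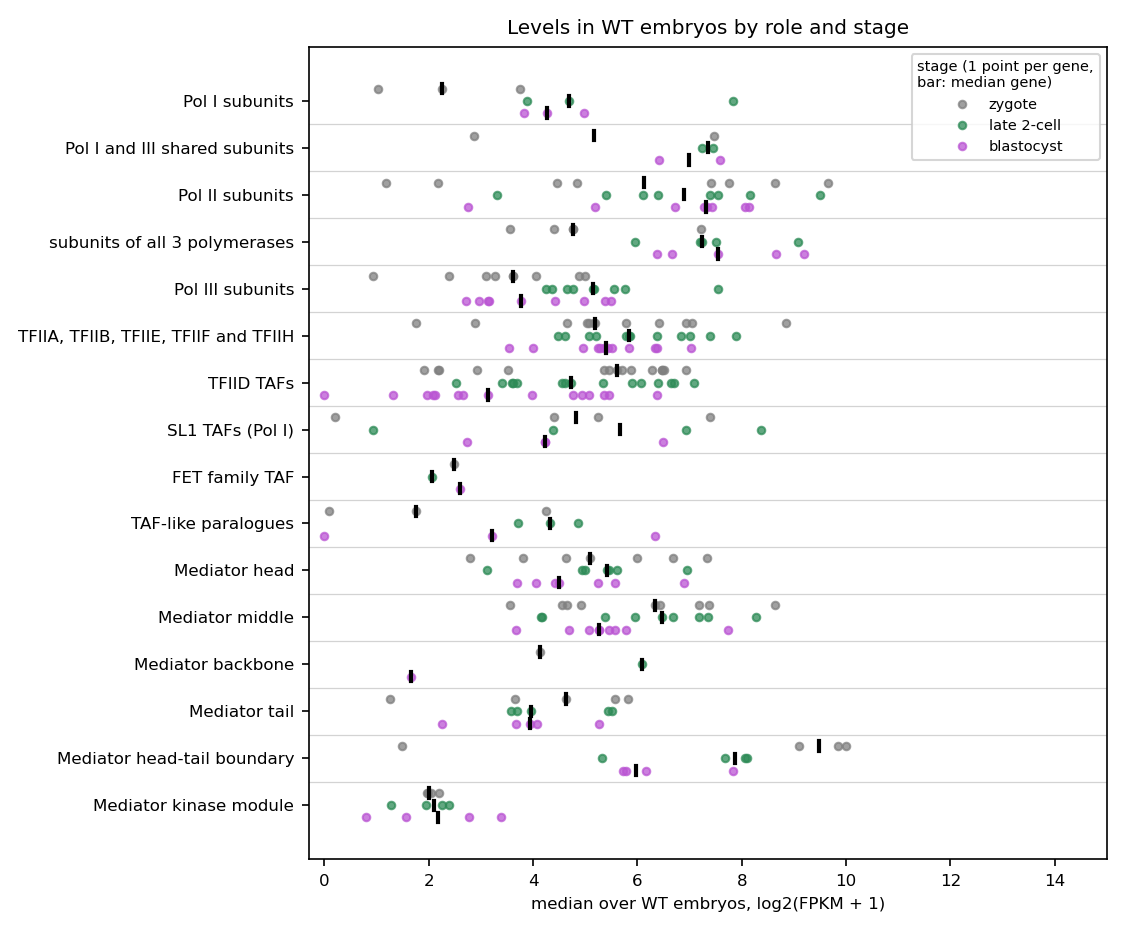
Median level over WT embryos of each of the 92 genes, as log2(FPKM + 1), by role and stage, with 1 point per gene and a black bar at the median gene. In the head-tail boundary row the zygote points sit far apart, with Med29 at the left and Med27, Med28 and Med30 at the right, and at late 2-cell and in blastocysts they lie closer together.

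Polr2a, the largest Pol II subunit, had WT medians of 1.28, 8.88 and 5.77 FPKM in zygotes, late 2-cell embryos and blastocysts, while Polr2c, which nucleates Pol II assembly, had 801, 285 and 160.0 FPKM. Polr1a, the largest Pol I subunit, was at 3.81, 13.8 and 13.2 FPKM, and Polr3a, its Pol III counterpart, at 31.1, 26.3 and 5.56 FPKM. Polr2a was the lowest Pol II gene in WT zygotes, and Polr3a was the highest of the 9 Pol III genes there. The ratio of the highest to the lowest Pol II gene was 626 in WT zygotes, 81.9 at late 2-cell and 48.5 in blastocysts.

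Paralogues took different courses. Taf9b, a close relative of the TFIID subunit Taf9, was at 87.4 FPKM (76.2 to 135) in WT zygotes, 11.1 FPKM (7.49 to 21.8) at late 2-cell and at most 0.350 FPKM in WT and 0.610 FPKM in R442Q blastocysts. Taf9 was at 47.9, 66.4 and 14.8 FPKM in WT. The Taf9 values are uncertain, because 76.8% of the 50-base stretches of its transcripts also occur in transcripts of another gene, chiefly Ak6, which overlaps it on the same strand. Taf4, a TFIID scaffold, had WT medians of 10.5, 9.54 and 2.90 FPKM and Taf4b, its germ cell relative, 2.76, 25.6 and 3.24 FPKM, so Taf4 was above Taf4b in zygotes and the medians stood in the other order afterwards. Their WT ranges did not overlap in zygotes and overlapped at both later stages.

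The kinase module stayed low. Its subunits Med12, Med12l, Med13 and Med13l had WT medians between 2.94 and 3.59 FPKM in zygotes. At late 2-cell they lay between 1.42 and 4.27 FPKM, and in blastocysts between 0.750 FPKM for Med13 and 9.48 FPKM for Med12l. The WT ranges of all 4 overlapped in zygotes.

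The change from zygote to late 2-cell was tested on counts in a model of all 20 embryos of these stages. In WT embryos 43 of the 92 genes rose and 18 fell (edgeR quasi-likelihood test, Benjamini-Hochberg adjusted p under 0.05), that is 61 of 92 against 61.2% of all 16199 genes tested, of which 36.2% rose and 25.0% fell. The median change of the 92 was 0.42 on the log2 scale, against 0.34 for all genes. So the number called is near the background, and the roles differed in direction. Of 27 polymerase genes 21 rose and 1 fell, whereas of 30 Mediator genes 9 rose and 11 fell. With the trend of transcript length and GC content removed, 36 rose and 29 fell, and of all genes 31.2% rose and 30.5% fell.

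Positions below are those of GENCODE M21 on GRCm38. All 5 subunits shared by the 3 polymerases rose, by 1.36 (Polr2k) to 4.03 (Polr2h) on the log2 scale. Polr2h was at 6.22, 3.94, 7.40, 7.04 and 9.15 CPM, the count relative to library size, in the 5 WT zygotes and at 126, 118, 88.6 and 108 CPM in the 4 WT late 2-cell embryos. The lowest late 2-cell embryo was far above the highest zygote, a 16.3-fold rise (log2 4.03, SE 0.27, edgeR adjusted p = 2.1e-11). All 3 Pol I subunits among the 92 rose, with Polr1b, the second largest, going from a WT median of 4.06 CPM to 85.2 CPM (log2 4.07, SE 0.44). Polr1c (ENSMUSG00000067148, chr17:46243920-46248054), which Pol I and Pol III share, was at 5.38, 6.31, 8.02, 6.50 and 8.70 CPM in WT zygotes and 111, 176, 206 and 262 CPM at late 2-cell. This 27.0-fold rise (log2 4.75, SE 0.34, edgeR adjusted p = 6.7e-11) was the largest among polymerase genes. Its partner Polr1d was at -0.17 and did not pass (edgeR adjusted p = 0.425). Of the 50-base stretches in the transcripts of a gene, 24.3% in Polr2k, 21.9% in Polr1d, 20.9% in Polr2l, 18.8% in Taf5l, 14.5% in Polr2h, 13.5% in Taf1d and 12.7% in Polr2c also occur in other genes, so counting could have split their reads.

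Of 9 Pol III subunits 7 rose, led by Polr3e (log2 4.30, SE 0.55) and Polr3g (log2 3.34, SE 0.33), while Polr3a was at 0.07 and Polr3f at -0.23 and neither passed. Of 8 Pol II subunits 5 rose, among them Polr2a (log2 2.60) and Polr2m (log2 4.31, SE 0.38), which encodes Gdown1, a factor that makes Pol II depend on Mediator. Polr2c, abundant in zygotes, was the 1 polymerase gene that fell in WT, from a median of 1094 CPM to 379.9 CPM (log2 -1.57, SE 0.22).

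Among general factors 5 of 12 rose and 2 fell. Gtf2h4 (ENSMUSG00000001524, chr17:35667730-35673739), the TFIIH subunit that anchors the XPB translocase, was at 1.20, 1.35, 3.38, 5.68 and 3.05 CPM in WT zygotes and 48.7, 71.1, 55.6 and 60.8 CPM at late 2-cell. The groups did not overlap (log2 4.33, SE 0.44, edgeR adjusted p = 1.3e-08). Gtf2b (ENSMUSG00000028271, chr3:142765045-142783606), which encodes TFIIB, went the other way, from 536, 577, 622, 649.6 and 558 CPM to 83.9, 29.0, 107 and 52.8 CPM. That was an 8.63-fold fall (log2 -3.11, SE 0.35, edgeR adjusted p = 7.5e-08).

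Of 15 TFIID TAFs 4 rose (Taf1, Taf2, Taf4b and Taf11) and 3 fell (Taf3, Taf6 and Taf9b). Taf9b (ENSMUSG00000047242, chrX:106206883-106221158) fell from a WT median of 199.8 CPM to 23.2 CPM (log2 -3.01, SE 0.33, edgeR adjusted p = 5.8e-08), and Taf9 was at 0.41 and did not pass (edgeR adjusted p = 0.13). In SL1, Taf1d rose (log2 2.88) and Taf1a fell (log2 -0.67). Taf5l (log2 2.92) and Taf6l (log2 1.25), both of the SAGA coactivator, rose, and so did Taf7l. Taf7l was at 35.9, 3.13, 16.0 and 17.1 CPM in WT late 2-cell embryos. Relative to total counts that was 199 times the zygote level, with an exact 95% interval of 77.1 to 732 that covers counting error only. In R442Q embryos the ratio was 2928 (525 to 115721), resting on 1 zygote count.

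The change of the 30 Mediator genes in WT ran from -3.96 to 6.98 on the log2 scale. Med29 (ENSMUSG00000003444, chr7:28386146-28392708) was at 1.43, 1.91, 2.01, 3.25 and 2.49 CPM in WT zygotes and 262, 313, 179.7 and 368 CPM at late 2-cell, a 126-fold rise (log2 6.98, SE 0.42, edgeR adjusted p = 5.9e-12). Its neighbours at the head-tail boundary all fell. Med30 (ENSMUSG00000038622, chr15:52712408-52730564) went from 354, 392, 395, 412 and 441 CPM to 9.69, 29.6, 28.4 and 34.9 CPM, a 15.6-fold fall (log2 -3.96, SE 0.32, edgeR adjusted p = 4.4e-10). Med28 fell by 1.89 and Med27 by 1.62 on the log2 scale. These opposite courses brought the 4 boundary genes from a 562-fold spread of WT medians in FPKM in zygotes to a 7.01-fold spread at late 2-cell.

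In the Mediator head, Med17, its central scaffold, Med18 and Med22 fell (log2 -2.07, -1.81 and -1.52), while Med20, the partner of Med18, and Med11, the partner of Med22, rose (log2 2.76 and 1.68). In the tail, Med15, which binds activators, and Med23 fell (log2 -1.95 and -1.30), and Med16 and Med24 rose (log2 3.17 and 1.67). The backbone Med14 rose (log2 1.82). In the middle, Med7, Med9 and Med4 rose and Med21 and Med19 fell. Head, middle, tail and boundary each held genes that rose and genes that fell. In the kinase module Med12l fell (log2 -1.05) and the other 3 genes did not pass.

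In R442Q embryos 46 genes rose and 21 fell, 67 of 92 against 65.1% of all genes tested (35.3% rose and 29.8% fell), with a median change of 0.81 against 0.22 for all genes. The change in R442Q had a rank correlation of -0.29 with transcript length across the 92 genes and -0.20 across all genes. In WT these were -0.01 and -0.10. Of the 92, 34 rose and 14 fell in both genotypes. No share of all genes called alike in both genotypes is given beside this count, so it is not read as particular to the 92. Med29 was at 0.770 to 2.85 CPM in the 6 R442Q zygotes, with a median of 1.30 CPM, and at 571, 436, 175, 708 and 589.6 CPM at late 2-cell (log2 8.32, SE 0.41). Med30 fell by 3.39 and Med15 by 3.22 on the log2 scale. All 5 shared polymerase subunits and all 3 Pol I subunits among the 92 rose here as well. Of the 9 Pol III subunits 5 rose and 2 fell, Polr3a (log2 -0.91) and Polr3f (log2 -0.98), and in all 21 polymerase genes rose and 3 fell. Of the 30 Mediator genes 12 rose and 13 fell. The genes called in opposite directions were Gtf2a1, which rose in WT (log2 0.82) and fell in R442Q (log2 -0.99), and Med21, which fell in WT (log2 -1.13) and rose in R442Q (log2 0.59). Their longest transcripts have 6064 and 1713 bases, and the part of length in these changes was not tested.

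**Figure D2:**
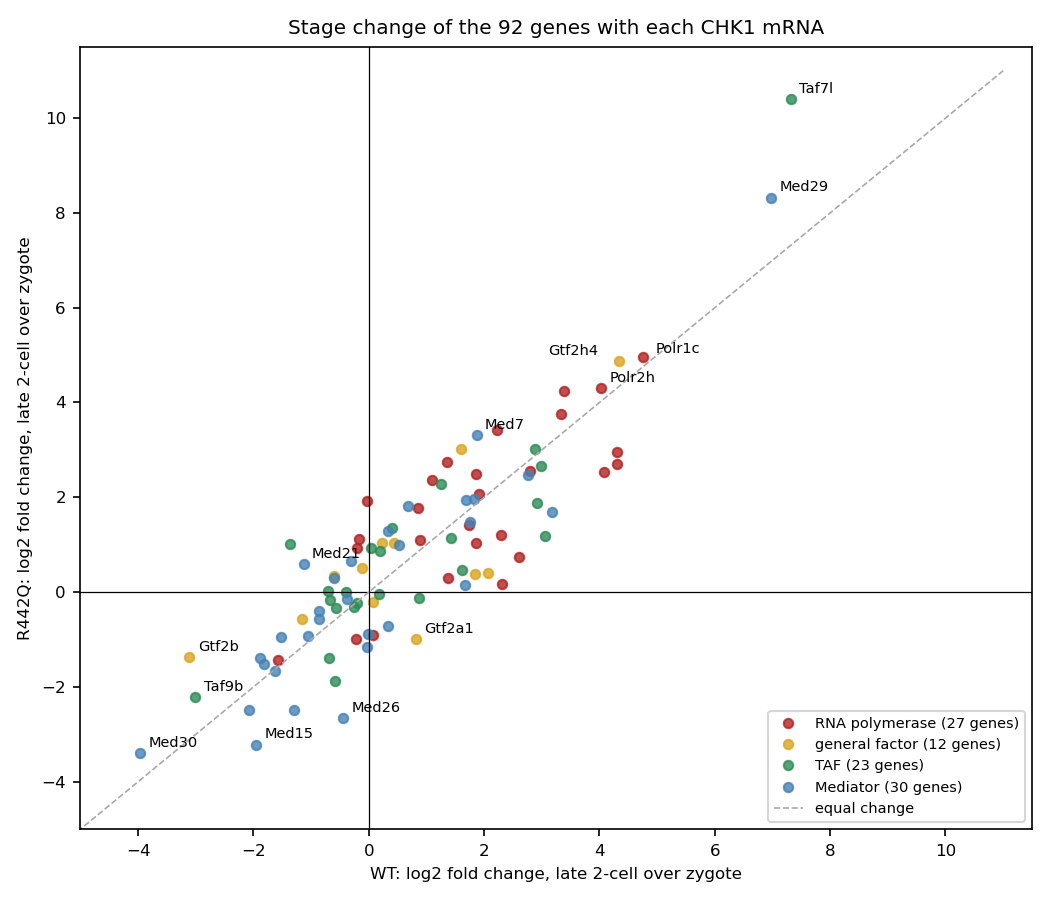
Log2 fold change from zygote to late 2-cell of each of the 92 genes in WT (x axis) and R442Q (y axis) embryos, coloured by family, with a dashed line where both are equal. Most points run along the line, Med29 and Taf7l lie at the top right and Med30 at the bottom left, and the fitted values of Taf7l rest on 4 and 1 zygote counts.

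Whether the R442Q form changed these genes was asked within each stage. In zygotes 8 of the 90 genes tested were higher and 18 lower in R442Q, 26 of 90 against 13.2% of all 12420 genes tested, of which 6.30% were higher and 6.92% lower. Taf1c and Taf7l had too few counts to be tested. Differences ran from -1.59 (Taf15) to 0.72 on the log2 scale, with a median of -0.14 against 0.01 for all genes. Groups did not overlap for 17 of the 90 genes, against 8.71% of all genes. Using the deposited FPKM in place of counts, 22 were lower and 0 higher, where 10.4% of all genes were lower and 3.47% higher and the median of all genes was -0.11. Without a filter on low counts 21 were lower and 3 higher, against 6.34% of all genes called in either direction.

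The clearest zygote differences were lower levels in R442Q. Polr2d, which with its partner forms the Pol II stalk, was at 134, 117, 127, 113 and 159.9 CPM in WT zygotes and 49.3 to 82.5 CPM, with a median of 66.1 CPM, in R442Q. Every R442Q zygote lay below every WT zygote (log2 -0.97, SE 0.14, edgeR adjusted p = 5.3e-04). Med17 (ENSMUSG00000031935, chr9:15260351-15279931) was at 247, 218, 189.6, 208 and 267 CPM in WT and 64.8 to 168 CPM, with a median of 113 CPM, in R442Q (log2 -1.03, SE 0.18, edgeR adjusted p = 0.0018). The groups did not overlap. Taf1a (ENSMUSG00000072258, chr1:183388981-183410198) was at 232, 225, 191, 184 and 163 CPM in WT and 77.7 to 128 CPM, with a median of 118 CPM, in R442Q (log2 -0.82, SE 0.13, edgeR adjusted p = 0.0011), again without overlap.

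By role, 4 of the 7 Mediator head genes were lower (Med6, Med8, Med17 and Med22) and none higher by that test, with all 7 estimates below 0. Of the TFIIH core, Gtf2h1, Gtf2h2 and Gtf2h5 were lower (log2 -0.48, -0.74 and -0.72). Gtf2h5 was at 26.9 to 32.2 CPM in the 5 WT zygotes and 14.7 to 22.6 CPM in the 6 R442Q zygotes. In the polymerases, Polr1d, Polr1e, Polr2b and Polr3a were also lower, by 0.50 to 0.75 on the log2 scale. Polr1d was at 145 to 191 CPM in WT and 105 to 126 CPM in R442Q, without overlap. Other genes called lower were Med21, Med26, Taf8, Taf6l and Taf15, the last at 3.45 to 11.7 CPM in WT and 0.307 to 3.19 CPM in R442Q.

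The 8 genes called higher in R442Q zygotes were Gtf2a1, Polr2f, Med15, Polr2c, Taf9, Med30, Polr3d and Med25. Gtf2a1 (ENSMUSG00000020962, chr12:91555262-91590487), the large TFIIA subunit, was at 444, 446, 462, 470.3 and 329 CPM in WT and 531 to 675 CPM, with a median of 589 CPM, in R442Q (log2 0.48, SE 0.11, edgeR adjusted p = 0.0085). Polr2f was at 69.6 to 76.7 CPM in WT and 86.9 to 108 CPM in R442Q (log2 0.41, SE 0.11). Groups overlapped for Med15, Polr2c, Taf9, Polr3d and Med25. With limma on the deposited FPKM, a scale that moved the median of all genes down as given above, 0 of these 8 passed. Of the 11 fits that left out 1 zygote, Polr3d and Med25 did not pass in 7 each. Med15, Med30 and Taf9 did not pass in 4 each and Polr2c in 3, whereas Gtf2a1 and Polr2f passed in all.

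**Figure D3:**
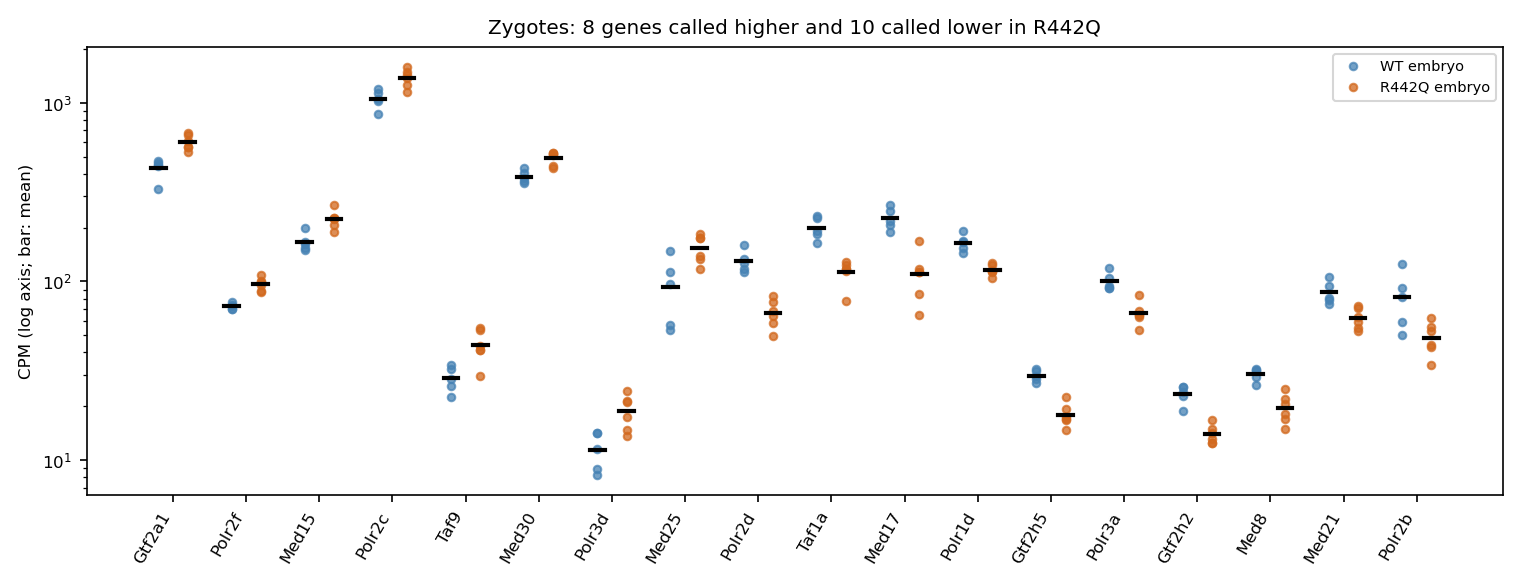
CPM (log axis) in each of 5 WT and 6 R442Q zygotes for the 8 genes called higher and the 10 called lower in R442Q with the smallest p, with a bar at each group's mean. The lower genes from Polr2d to Med21 show R442Q points wholly below the WT points, and Polr2b overlaps.

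The zygote calls came from a fit to zygotes alone. In the model of all 20 embryos, which also tests 16199 genes in place of 12420 and scales libraries over both stages, 1 of the 92 was called, Med17 (edgeR adjusted p = 0.042), and the share of all genes called was 1.67%. Leaving out 1 zygote gave 14 to 23 calls, with 14 without WT replicate 1 (9.43% of all genes), 14 without WT replicate 2 (8.88%), 17 without WT replicate 3 (10.7%) and 14 without R442Q replicate 1 (9.61%). The summed level of the 8 cumulus cell markers, the somatic cells that surround an egg, moved with genotype in zygotes, with a median of 19.9 FPKM and a lowest value of 17.9 FPKM in WT and a median of 15.1 FPKM and a highest value of 17.3 FPKM in R442Q, so that the groups did not overlap. In either group 1 of the 8 had a median of at least 1 FPKM, and Ptx3 was at 0 in all WT zygotes. The part of these markers in the zygote differences was not tested.

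At late 2-cell 1 gene was higher and 7 were lower in R442Q, 8 of 92 against 4.18% of all 13883 genes tested, of which 1.22% were higher and 2.95% lower. The gene that was higher was Taf9, and the lower ones were Med26, Gtf2f1, Taf3, Polr3e, Polr2m, Gtf2a1 and Med24. Groups did not overlap for 23 of the 92, against 12.0% of all genes. The median of the 92 was 0.20, against 0.07 for all genes. DESeq2 called 8 of the 92 higher and 15 lower, where it called 14.5% of all genes. Limma on the deposited FPKM called 2 higher and 6 lower, against 4.60% of all genes. The model of all 20 embryos called 12 higher and 19 lower, against 15.5% of all genes.

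Med26 (ENSMUSG00000045248, chr8:72494561-72548270), the middle subunit that recruits elongation factors, was at 40.0, 47.7, 66.1 and 52.6 CPM in WT and 6.44, 8.80, 6.89, 3.29 and 16.2 CPM in R442Q. The groups were far apart, a 6.15-fold lower level (log2 -2.62, SE 0.46, edgeR adjusted p = 0.011). Gtf2f1 (ENSMUSG00000002658, chr17:57003405-57011288), the large TFIIF subunit, was at 288, 242, 224 and 297 CPM in WT and 30.1, 58.9, 116, 40.0 and 68.8 CPM in R442Q (log2 -2.06, SE 0.37, edgeR adjusted p = 0.012). Here too no R442Q embryo reached the WT range. Taf3 (ENSMUSG00000025782, chr2:9914552-10048596), the TFIID subunit that reads methylated histone H3, was at 173, 229.8, 189 and 187 CPM in WT and 55.7, 72.6, 89.4, 83.4 and 64.4 CPM in R442Q (log2 -1.41, SE 0.27, edgeR adjusted p = 0.013).

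Polr3e and Polr2m, both among the largest risers in WT, were lower in R442Q. Polr3e was at 49.2, 85.7, 56.3 and 55.0 CPM in WT and 9.18, 25.2, 19.1, 14.7 and 16.4 CPM in R442Q (log2 -1.86, SE 0.37, edgeR adjusted p = 0.016). Polr2m was at 158, 147, 81.4 and 183 CPM in WT and 50.8, 44.0, 19.8, 41.9 and 56.4 CPM in R442Q (log2 -1.74, SE 0.35, edgeR adjusted p = 0.017). Gtf2a1, higher in R442Q zygotes, was lower here, at 706, 704, 907 and 942 CPM in WT and 341, 524, 284, 215 and 356 CPM in R442Q (log2 -1.25, SE 0.30, edgeR adjusted p = 0.033). Gtf2a1 no longer passed when any single WT embryo, or R442Q replicate 1, 4 or 5, was left out (7 of 9 such fits), and over its 18 alternatives the adjusted p ran from 2.0e-04 to 0.278. Med24 of the tail was at 79.2 to 137 CPM in WT and 27.7 to 57.0 CPM in R442Q (log2 -1.31, SE 0.32), and did not pass in 6 of 9 such fits. All 5 tail genes had estimates below 0, and only Med24 passed. Taf9 was at 38.5, 33.6, 41.4 and 48.9 CPM in WT and 164, 130.3, 114, 86.9 and 140.0 CPM in R442Q (log2 1.65, SE 0.30, edgeR adjusted p = 0.012), with the caution about Ak6 given above.

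The late 2-cell difference ran with transcript length. Across the 92 genes the log2 difference and the length of the longest transcript had a rank correlation of -0.54, as against -0.33 across all 13784 genes with a length, where genes share the same libraries and no p is given. Of the 46 genes with transcripts under the members' median of 2870.5 bases, 35 were above 0, with a median of 0.63. Of the 46 at or over it, 17 were above 0, with a median of -0.48. After removal of the length and GC trend fitted over all genes, 2 genes were called, Gtf2f1 and Polr2m, both lower, against 0.965% of all genes. In zygotes the correlation was 0.17, against 0.01 across all genes, and in blastocysts -0.15, against -0.05.

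Other measures moved with genotype at this stage. The sum of the 9 oocyte and zygote markers was 3691 to 5049.6 FPKM in WT and 7318 to 10609.6 FPKM in R442Q late 2-cell embryos, without overlap, and that of the 8 late 2-cell markers was 228 to 1929 FPKM in WT and 912 to 3154 FPKM in R442Q, with overlap. The cumulus cell markers, of which 2 of 8 had a median of at least 1 FPKM in either group, summed to 44.6 to 71.7 FPKM in WT (median 62.8) and 17.4 to 74.4 FPKM in R442Q (median 28.9). Fshr was at 0 in both groups, and Foxl2 and Ptx3 in WT. The sum of FPKM over all genes also differed, with medians of 739259.9 in WT and 898029.8 in R442Q. The part of these in the differences of the 92 genes was not tested. Leaving out 1 embryo gave 2 to 21 calls, with 2 without WT replicate 2 (0.967% of all genes), 5 without WT replicate 4 (1.42%) and 21 without R442Q replicate 3 (6.76%).

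**Figure D4:**
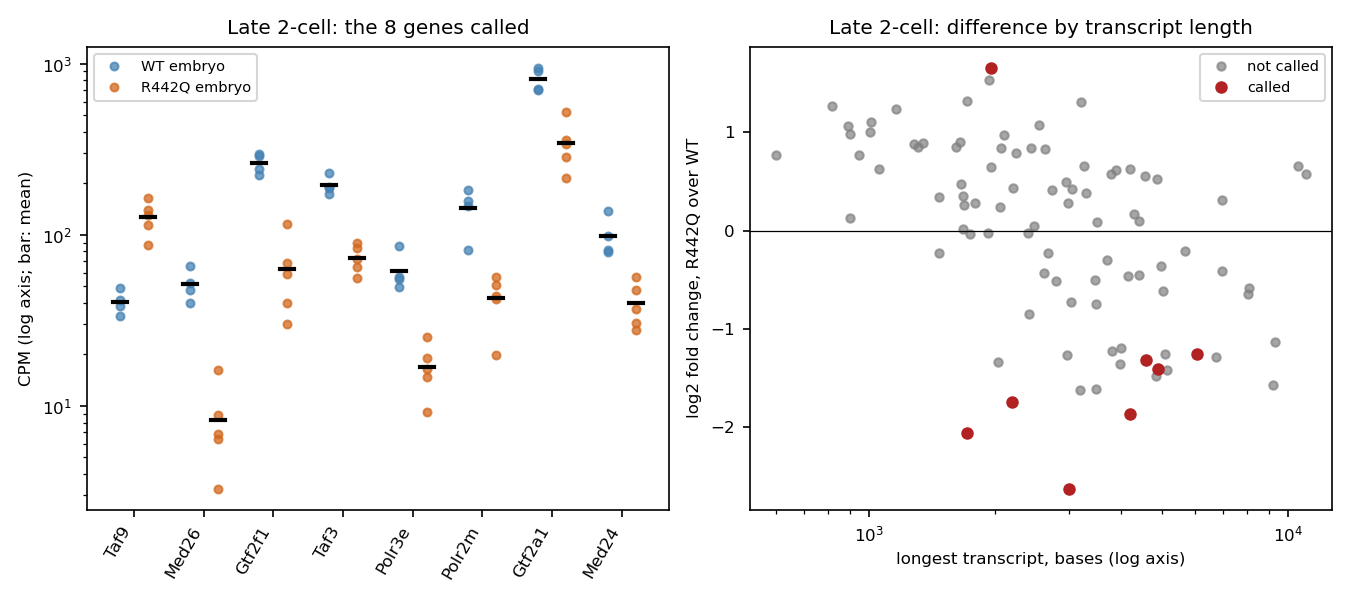
Left, CPM (log axis) in each of 4 WT and 5 R442Q late 2-cell embryos for the 8 genes called, with a bar at each group's mean. Right, log2 fold change of R442Q over WT for all 92 genes against the longest transcript in bases (log axis), with most short transcripts above 0 and most long ones below, and 7 of the 8 called genes below 0.

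The 2 stages were compared directly by testing whether the genotype difference at late 2-cell differed from that in zygotes. It was more positive at late 2-cell for 7 genes and more negative for 10, 17 of 92 against 10.1% of all genes tested (3.07% more positive and 7.05% more negative). The median of all genes was -0.16 under the main scaling and -0.01 with median-ratio size factors, which gave 12 more positive and 9 more negative, against 4.36% and 5.66% of all genes. Gtf2a1 had the smallest p, with a change of -1.81 (SE 0.28, edgeR adjusted p = 4.0e-04). It was higher in R442Q zygotes and lower in R442Q late 2-cell embryos. Polr1d, at 1.30 (SE 0.25, edgeR adjusted p = 0.002), and Polr2d, at 1.96 (SE 0.39, edgeR adjusted p = 0.0028), were called lower in R442Q zygotes and were not called at late 2-cell. Polr2d was then at 129, 156, 94.2 and 164 CPM in WT and 449.7, 199.6, 124, 225 and 451 CPM in R442Q. Med26 (-2.20, SE 0.42), Polr3d (-2.14, SE 0.44), Gtf2f1 (-1.66, SE 0.40), Med24 (-1.52, SE 0.36) and Taf3 (-1.28, SE 0.27) were more negative, and Med21 (1.72, SE 0.36) and Med7 (1.44, SE 0.32) more positive. After removal of the length and GC trend 10 genes were called, against 5.83% of all genes, and Med26, Med24 and Taf3 were no longer among them. Without R442Q late 2-cell replicate 3 there were 29 calls, against 14.6% of all genes. Across the 92 genes this change had a rank correlation of -0.56 with transcript length, against -0.19 across all genes with a length.

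In blastocysts no gene of the 90 tested was called by limma on log2(FPKM + 1), against 0.00885% of all 11297 genes tested. At an unadjusted p under 0.05 there were 3 genes of the 90, against 7.40% of all genes. The median difference was -0.11, against -0.10 for all genes. Taf7l and Taf9b did not reach the minimum level for the test.

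Med16, a tail subunit (ENSMUSG00000013833, chr10:79894708-79908923), had the smallest p. It was at 9.74 to 27.5 FPKM, with a median of 15.9 FPKM, in the 7 WT blastocysts and at 28.4 to 65.1 FPKM, with a median of 39.6 FPKM, in the 7 R442Q blastocysts. The groups did not overlap, which held for 1 of the 90 genes against 0.416% of all genes, and the difference did not pass (1.27 on the log2(FPKM + 1) scale, SE 0.27, limma adjusted p = 0.118). Without WT replicate 7 it passed (1.40, limma adjusted p = 0.037). Taf4 was at 1.49 to 7.83 FPKM in WT and 0.0200 to 2.31 FPKM in R442Q (-1.16, SE 0.37, limma adjusted p = 0.333), and Taf12, a TFIID histone-fold subunit, at 18.2 to 81.8 FPKM and 48.2 to 86.0 FPKM (0.61, SE 0.28, limma adjusted p = 0.655). Med23 (-0.79) and Med1 (-0.89), the subunit that binds nuclear receptors, followed, with limma adjusted p of 0.67 and 0.696, and their groups overlapped. R442Q replicate 7 had Polr2a at 0.130 FPKM, whereas the other 13 blastocysts were at 3.48 to 11.7 FPKM. Without it the median difference of the genes was 0.00 and 0 were called.

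**Figure D5:**
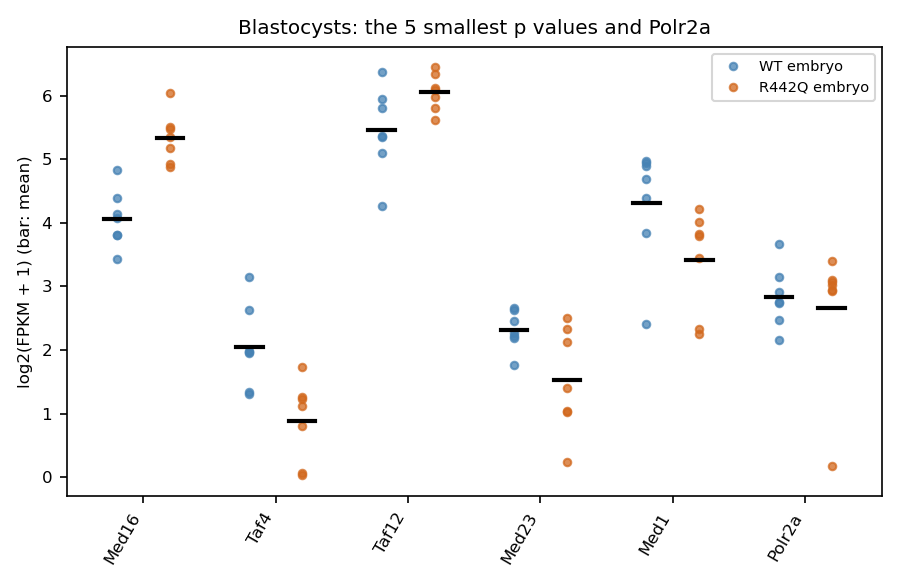
Level, as log2(FPKM + 1), in each of 7 WT and 7 R442Q blastocysts for the 5 genes with the smallest p and for Polr2a, with a bar at each group's mean. The Med16 groups do not overlap and the others do, and 1 R442Q embryo stands near 0 for Polr2a.

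A further 66 genes of the same pathway, listed by function and not by how they moved, were counted beside the 92. From zygote to late 2-cell 37 rose and 14 fell in WT, against 36.2% and 25.0% of all genes, and 31 rose and 18 fell in R442Q, against 35.3% and 29.8%. Among those that initiate Pol I and Pol III transcription 12 of 17 rose in WT, including Ubtf, the Pol I upstream binding factor (log2 5.21, SE 0.46), and Gtf3c5 of TFIIIC (log2 7.72, SE 0.73). Tbpl2, the oocyte form of TBP, fell in both genotypes (log2 -3.48 and -5.32), and Tbpl1 rose (log2 1.60 and 2.56). Among Pol I subunits under other names, Cd3eap (log2 2.90) and Twistnb (log2 1.21) rose in WT and Znrd1 was at 1.62 and did not pass (edgeR adjusted p = 0.068). In R442Q against WT 2 were higher and 8 lower of 65 in zygotes, near the 13.2% of all genes. At late 2-cell 1 was higher and 11 lower of 64, against 4.18% of all genes, in the main fit alone. With the length and GC trend removed the share of all genes called at this stage was 0.965%, and with a replicate block by title number 0.418%. The calls of these pathway genes under those settings are not given here. In blastocysts none of 63 was called by limma, and 3 had an unadjusted p under 0.05, below the 7.40% of all genes. The late 2-cell genes that were lower included Ubtf (log2 -2.14), Gtf3c5 (log2 -1.93), Snapc4 (log2 -2.61), which serves small nuclear RNA promoters, and Supt5 (log2 -2.13), a Pol II pausing and elongation factor. Tbpl1 was the 1 that was higher (log2 1.28, SE 0.31).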

How the data were processed

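Single embryos were sequenced after SMART-seq2, and values came from the authors' deposited tables. For zygotes and late 2-cell embryos these hold estimated counts per gene, not normalised, which the authors made with RSEM on mm10 per the submitters' processing notes, and for all stages FPKM, in which the authors corrected for library size and transcript length. The annotation and use of strand were not given in the sources used here. Titles gave groups and replicate numbers.

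Counts were rounded and fitted over all genes with edgeR 4.0.16 (R 4.3.3, TMM scaling, filterByExpr minimum count 10, quasi-likelihood test). Blastocysts were fitted with limma 3.58.1 on log2(FPKM + 1), for genes at 1 FPKM or more in at least 7 embryos. Benjamini-Hochberg adjusted p under 0.05 was a call, over all genes tested. Genotypes were compared within each stage. Stage changes and the genotype by stage difference came from 1 model of 4 groups. Scripts were tested on simulated data. Not every pair of embryos that shared a number in the titles or in the descriptions deviated together, so numbers were not treated as pairs.

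Named genes were up to 10 per direction by p in each genotype comparison by counts, the 5 smallest p in blastocysts, the 10 largest rises and falls with at least 5 CPM in the higher stage, up to 10 for the genotype by stage difference, the 5 highest and 3 lowest levels per stage, the largest subunits and 4 paralogue pairs. Other called genes and role members outside this rule were named after their values were seen. The genes and lists were chosen with earlier results of these data known. Alternatives were other size factors, no filter, DESeq2 1.42.0, limma on FPKM, removal of length and GC trends, a replicate block, another pseudocount and leaving out each embryo. Lengths and positions came from GENCODE M21.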

Additional observations from a re-analysis of the deposited data

Results flagged for a closer look

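Within groups of 4 to 7 embryos, the gap between an extreme embryo and its nearest neighbour exceeded the 95% critical value of Dixon's test in 17 of 168 groups examined, where chance gives about 1 in 20. In zygotes the embryos far from the rest were WT replicate 5 for Gtf2a1 (329 CPM, next 444), R442Q replicate 2 for Taf1a (77.7 CPM, next 114), WT replicate 3 for Taf4 (22.9 FPKM, next 12.2), Taf9b (135 FPKM, next 92.6), Taf1c (0.840 FPKM) and Taf7l (0.520 FPKM), R442Q replicate 4 for Taf1c (0.370 FPKM) and R442Q replicate 1 for Taf7l (0.0800 FPKM). At late 2-cell they were WT replicate 4 for Med10 (429 FPKM, next 314) and R442Q replicate 3 for Polr3a (27.8 FPKM, next 10.3) and Taf9b (45.6 FPKM, next 19.7). In blastocysts they were R442Q replicate 7 for Polr2a (0.130 FPKM, next 6.61) and Polr2e (109 FPKM, next 332), WT replicate 2 for Polr2f (1602 FPKM, next 817) and Taf4b (8.84 FPKM, next 3.98), and, at low levels, WT replicate 5 (0.350 FPKM) and R442Q replicate 2 (0.610 FPKM) for Taf9b.

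The genotype difference at late 2-cell differed from that in zygotes, by the edgeR test of the difference itself, for Gtf2a1 (-1.81), Med26 (-2.20), Polr3d (-2.14), Gtf2f1 (-1.66), Med24 (-1.52) and Taf3 (-1.28), which were more negative at late 2-cell, and for Polr2d (1.96), Med21 (1.72), Med7 (1.44) and Polr1d (1.30), which were more positive, all on the log2 scale. With the length and GC trend removed Med26, Med24 and Taf3 were not called.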

How the results depend on the processing

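Counts of genes called between genotypes moved with the fit. Shares in brackets are of all genes called under the same setting. In zygotes the 26 calls (13.2%) became 1 in the model of 4 groups (1.67%). At late 2-cell the 8 calls (4.18%) became 13 without a filter (3.32%), 23 with DESeq2 (14.5%), 2 with the length and GC trend removed (0.965%) and 31 in the model of 4 groups (15.5%). The 17 calls of the genotype by stage difference (10.1%) became 28 with DESeq2 (14.7%) and 10 with the length and GC trend removed (5.83%). Replicate numbers were not treated as pairs, because at no stage did every embryo correlate best with its own number. This held for the numbers in the titles and for those in the descriptions, which differ for zygotes and late 2-cell embryos. By title number some embryos did: replicate 5 in zygotes (r 0.06), 3 at late 2-cell (r 0.21), and 5 and 6 in blastocysts (r 0.20 and 0.20). A batch shared by some pairs was not tested. With a replicate block by title number the calls were 17 in zygotes (9.80%), 1 at late 2-cell (0.418%) and 16 for the difference (6.70%), 61 (57.7%) and 64 (60.8%) for the stage changes in WT and R442Q and 0 (0.00%) in blastocysts, and with the block and the length and GC trend removed 21 (10.8%), 0 (0.00%) and 2 (2.69%), when Gtf2a1 alone of the 10 genes named for the difference was called. With a replicate block by description number, chosen after seeing the data, they were 11 in zygotes (8.08%), 0 at late 2-cell (0.00%) and 13 for the difference (5.91%), and 59 (56.5%) and 63 (62.0%) for the stage changes. Leaving out 1 embryo at a time gave 14 to 23 calls in zygotes (8.88% to 14.2%), 2 to 21 at late 2-cell (0.967% to 6.76%), 0 to 1 in blastocysts (0.00% to 0.266%), 57 to 64 (56.2% to 64.2%) and 63 to 69 (62.7% to 66.2%) for the stage changes and 12 to 29 (6.76% to 14.6%) for the difference. Among named called genes, leaving out 1 embryo kept the call in all 800 values of the stage changes, in 216 and lost it in 54 of the genotype differences in zygotes and at late 2-cell, and in 199 and lost it in 1 of the difference between stages. The 800 values include fits that left out an embryo of the other genotype, so both groups of that contrast stayed whole. The genes named there were also those with the largest changes. The 800 are therefore not comparable with the values of the genotype differences. Other settings kept 280 and lost none for the stage changes, kept 151 and lost 83 for the genotype differences, and kept 58 and lost 12 for the difference between stages. No called value changed sign under any alternative run, and Polr3d in zygotes came to 0.00 with limma on FPKM. Stage changes were not refitted on FPKM, because the tables were normalised separately. With 4 to 7 embryos a group, and at most 12 counts for Taf1c and 2 for Taf7l in any zygote, smaller differences were not detectable.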
